A study of Danio rerio with 4 samples.

Results

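The genes described here encode the subunits of ionotropic neurotransmitter receptors, the ion channels that open when acetylcholine, glycine, GABA or glutamate binds to them. They were chosen by symbol: every gene whose name begins as a nicotinic acetylcholine receptor subunit (chrn), a glycine receptor subunit (glra, glrb), a GABA-A receptor subunit (gabra, gabrb, gabrg, gabrd, gabrr, gabrz), or an AMPA (gria), NMDA (grin1, grin2, grin3) or kainate (grik) glutamate receptor subunit. This gave 73 of the 25432 genes in the files: 22 nicotinic, 5 glycine alpha, 2 glycine beta, 7 GABA-A alpha, 4 GABA-A beta, 2 GABA-A gamma, 1 GABA-A delta, 5 GABA-A rho, 1 GABA-A zeta, 8 AMPA, 12 NMDA and 4 kainate genes. A further 5 genes listed under capital letters would have matched the same names and were left outside the rule.

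Droplet RNA sequencing of single trunk cells was done for 2 libraries of flt1 mutant embryos (flt1ka604) and 2 libraries of WT embryos, all zebrafish aged 3 days post-fertilisation. flt1 encodes a Vegf receptor that acts as a decoy, and the allele carries a premature stop codon in every cell of the embryo, so no cell type was targeted. The study asked how neural and endothelial cells of the trunk interact when Vegf signalling is raised, and the 2 genotypes were compared here for receptor subunits in each cell class. Each library was made from the dissected trunks of several embryos, heads had been removed, and the labels do not say whether the replicates came from separate clutches, so p-values measure only the spread between these 4 libraries, which may be technical.

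Ligand-gated channels convert transmitter release into current within milliseconds, and their subunit makeup sets which transmitter is read and which ion passes. Nicotinic receptors are pentameric cation channels. In skeletal muscle they are built from the products of chrna1, chrnb1, chrnd and either chrng, the embryonic gamma subunit, or chrne, the adult epsilon subunit, while neurons use other alpha and beta subunits. Glycine and GABA-A receptors pass chloride and carry most inhibition in the spinal cord, whereas AMPA, kainate and NMDA receptors carry excitation by glutamate.

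After filtering, the flt1 mutant libraries held 4312 and 5569 cells and the WT libraries 3042 and 6688 cells, with 35781471 to 61822943 unique molecular identifiers (UMIs) per library. The median depth per cell was 5037.5 and 779 UMIs in the flt1 mutant libraries and 8033 and 3760 UMIs in the WT libraries, and flt1 mutant 2 was thus the shallowest. The flt1 transcript gave 1.22 and 1.71 CPM (UMIs of a gene per 1000000 UMIs) in flt1 mutant libraries and 0.950 and 1.70 in WT libraries, which is no check of the labels because a 3′ tag does not read the mutated part. Between 10 and 25 cell barcodes were shared by any pair of libraries. Levels below are CPM over all UMIs of the cell class in that library. Where 4 levels follow each other, they are those of flt1 mutant 1, flt1 mutant 2, WT 1 and WT 2. UMIs tag a molecule once at its 3′ end and were not scaled to transcript length, so values of different genes are set side by side and not ranked finely.

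Of the 73 genes, 62 had at least 10 UMIs over all cells, 8 had fewer and 3 had none (gabrr1, chrna10a and gabra6b). Together they gave 15625 UMIs in 19611 cells. Among 16 cell classes with at least 20 cells in every library, 46 of the 62 genes had their highest mean in neuron-like cells and 6 in fast muscle-like cells, followed by 2 each in endothelial-like, chondrocyte- or sclerotome-like and melanophore-like cells and 1 each in radial glia-like, muscle progenitor-like, smooth muscle-like and basal epidermis-like cells. The same share was not counted for other genes, and some of these means were low and close to those of the next class. Unnamed clusters were not among the 16 classes. They held 63.4% of the chrna3 UMIs and 53.6% of the chrna5 UMIs, 2 genes picked for their values. The largest unnamed cluster held 6177 cells at a median of 0.224 times the median depth of their library. Its 50 leading genes held 11 fast muscle and 3 slow muscle markers. The fast muscle-like class, 467 cells at 20.7 times that library median, thus need not stand for all muscle of the trunk. Summed over all 73 genes, the level was 902 ± 89.9 CPM in neuron-like cells (SD, n = 4 libraries), 191 ± 19.1 CPM in fast muscle-like cells, 103 ± 15.8 CPM in radial glia-like cells and 78.3 ± 9.43 CPM in muscle progenitor-like cells. Erythroid-like cells, taken as a class that should lack these channels, held 6.1 ± 1.77 CPM at a median depth of 16822 UMIs per cell. The share of RNA from other cells was not the same in each class: the muscle transcript mylpfa averaged 466 CPM in erythroid-like, 825 CPM in smooth muscle-like, 1108 CPM in radial glia-like and 2194 CPM in neuron-like cells. The median depth of neuron-like cells was 3315 and 2450 UMIs in flt1 mutant and 4280.5 and 2408 UMIs in WT libraries. The erythroid-like level is thus no upper limit of the background in shallower classes. The cell classes had been found without the 73 genes among the clustering features.

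**Figure D1:**
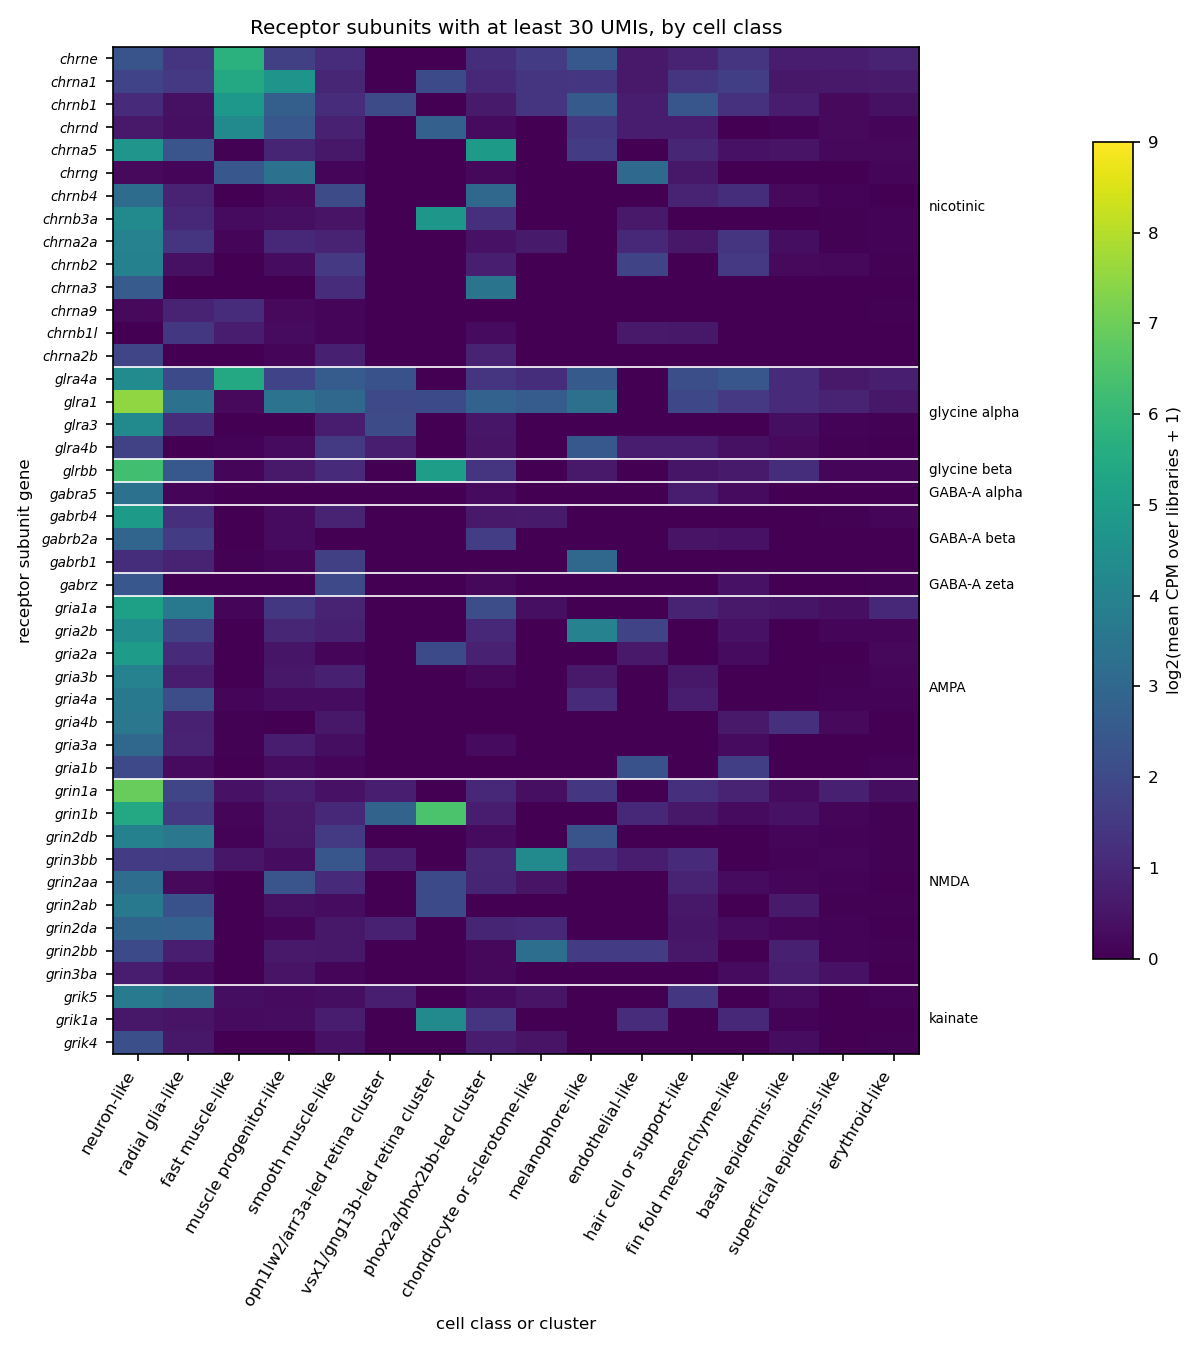
Mean level of each subunit reported here with at least 30 UMIs (rows, grouped by family) in 16 cell classes or clusters (columns), coloured by log2 of the mean CPM over libraries plus 1. The neuron-like column is bright over most families, the fast muscle-like column mainly over chrna1, chrnb1, chrnd, chrne, chrng and glra4a, and the erythroid-like column is near 0.

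Glycine receptors gave the largest signals of neuron-like cells. glra1, the alpha subunit that binds glycine, had 229 and 201 CPM in neuron-like cells of flt1 mutant libraries and 179 and 116 CPM in those of WT libraries, against 13.4 and 13.9 CPM in radial glia-like cells of flt1 mutant libraries and 6.04 and 4.59 CPM in those of WT libraries. No neuron-like value came near the radial glia-like ones. On the log2 scale glra1 was 4.12 ± 0.18 higher in neuron-like cells (SE; edgeR's quasi-likelihood test, adjusted p = 1.11e-07). glrbb, the beta subunit through which glycine receptors are anchored by gephyrin, had 97.1, 77.5, 75.2 and 55.5 CPM in neuron-like cells and 5.04, 3.86, 6.71 and 2.50 CPM in radial glia-like cells, a log2 difference of 3.87 ± 0.23. The second beta gene, glrba, was scarce, with a mean of 4.54 CPM in neuron-like cells. glra4a, another alpha subunit, differed by 2.39 ± 0.34.

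Across all subunits, 20 were tested between neuron-like and radial glia-like cells and 18 rose in neuron-like cells (26.4% of all 9095 genes tested were called higher), while none fell (34.7% of all genes tested were called lower). The median log2 difference was 3.86 over these 20 genes and -0.12 over all genes tested. Scaling by library totals in place of the trimmed mean of M-values (TMM) moved the median of all genes by 0.19, and higher calls then made up 52.7% of all called genes in place of 43.2%. DESeq2 also called 18 of the 20, and 4601 genes in all.

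NMDA receptors need a GluN1 subunit, and both zebrafish genes for it stood high in neuron-like cells. grin1a had 129 and 102 CPM in neuron-like cells of flt1 mutant libraries and 131 and 119 CPM in those of WT libraries, against 2.52, 3.08, 4.70 and 0.417 CPM in radial glia-like cells. Its log2 difference was 5.40 ± 0.32, larger than that of glra1, and grin1b differed by 4.25 ± 0.29. The AMPA subunit gene gria2a differed by 4.27 ± 0.37, and gabrb4, which encodes a beta subunit of GABA-A receptors, differed by 4.43 ± 0.50. Of the nicotinic genes, chrnb3a, an accessory beta subunit, was 3.85 ± 0.39 higher in neuron-like cells.

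A few subunits were shared with radial glia-like cells. gria1a, an AMPA subunit, had 18.6 and 27.8 CPM in neuron-like cells of flt1 mutant libraries and 52.4 and 35.6 CPM in those of WT libraries, against 10.1, 6.94, 17.5 and 10.9 CPM in radial glia-like cells, and its log2 difference was 1.38 ± 0.23 (adjusted p = 0.000531). The call was lost without the low-depth muscle gene-led, en2b-led and pax10-led subclusters (log2 0.69, adjusted p = 0.10), an alternative chosen after seeing the data. The kainate subunit grik5 and the NMDA subunit grin2db did not pass the test. grik5 averaged 11.7 ± 7.51 CPM in neuron-like cells and 9.07 ± 3.74 CPM in radial glia-like cells, with a log2 difference of 0.07 ± 0.46 (adjusted p = 0.91) that turned negative without WT 1, without flt1 mutant 2 and when the receptor genes were kept in the clustering. grin2db averaged 14.6 ± 4.94 CPM in neuron-like cells and 10.9 ± 6.07 CPM in radial glia-like cells (log2 difference 0.31 ± 0.35, adjusted p = 0.47), and was named after its values were seen. For both genes the values of the classes overlapped.

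Genes that work beside the receptors were counted where they passed the count filter, and genes low in both classes could not be tested. The filter kept 6 of 12 genes of glycine and GABA-A synapses and 8 of 30 glutamate receptor partners. Of all genes tested, 26.4% were called higher in neuron-like cells and 34.7% lower. All 6 tested genes of glycine and GABA-A synapses rose, among them gphnb (gephyrin, log2 3.86) and shisa7b (log2 3.59), and so did all 8 tested partners of AMPA, NMDA and kainate receptors, such as the AMPA auxiliary subunit genes cacng2a (log2 3.87) and cacng2b (log2 4.56). Both tested nicotinic modulators, lypd6 and ly6pge, rose too. In contrast, slc6a9 and slc6a11b, which encode glial carriers that clear glycine and GABA, fell by 5.98 and 6.51 on the log2 scale in neuron-like cells.

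**Figure D2:**
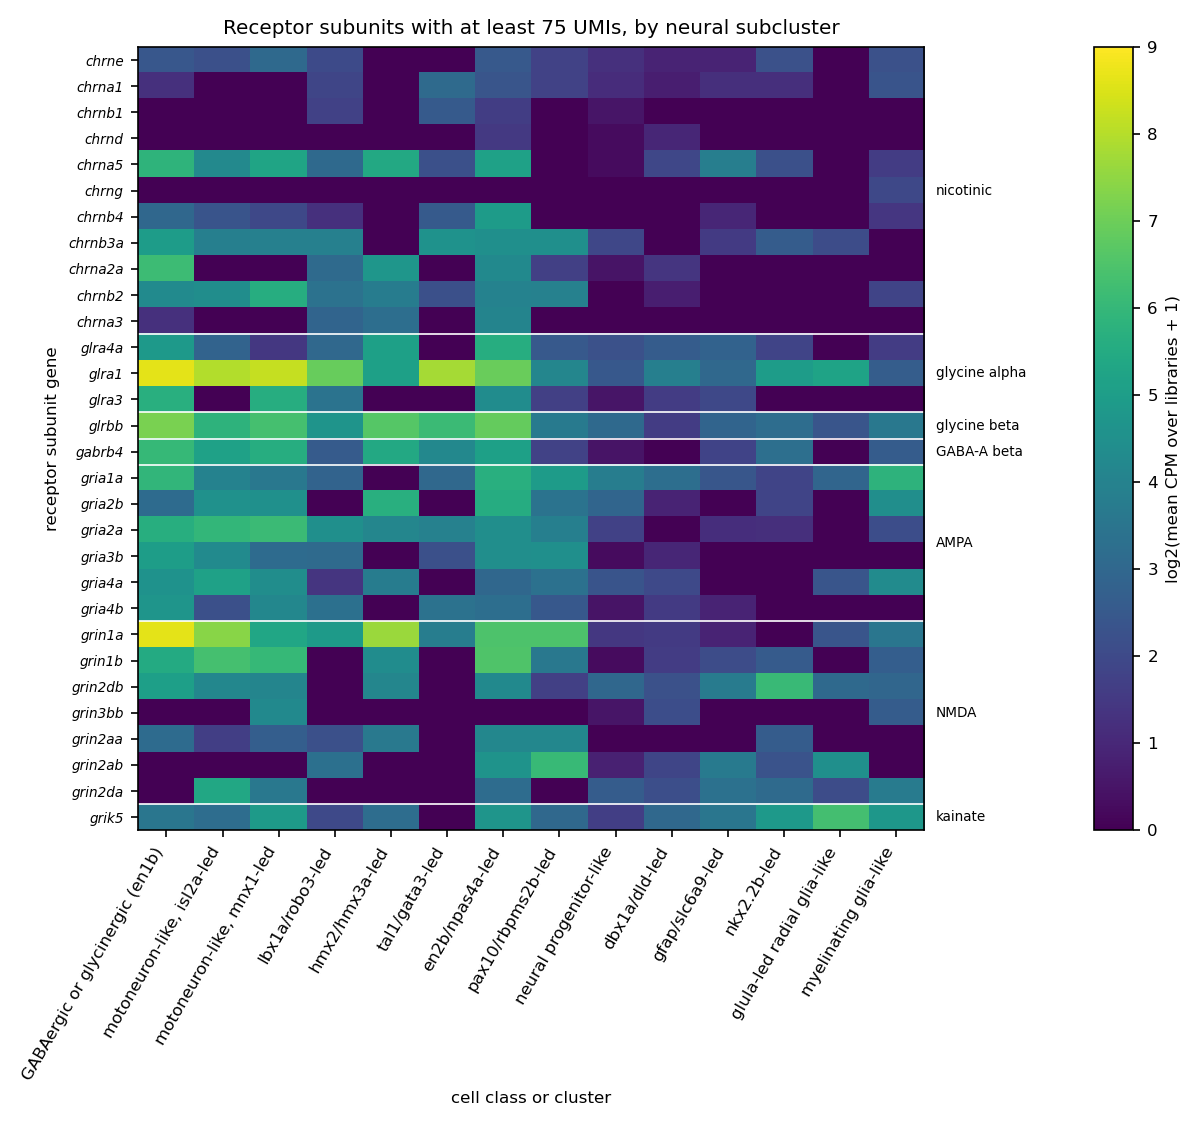
Mean level of each subunit reported here with at least 75 UMIs (rows, grouped by family) in 14 neural classes or subclusters (columns), coloured by log2 of the mean CPM over libraries plus 1. glra1 and grin1a are the brightest rows of the neuron subclusters, and grik5, grin2db and gria1a are the rows that extend into glial subclusters on the right.

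Neuron subclusters differed in which subunits they held. Transmitter markers named 3 of them, which formed 2 classes. A GABAergic or glycinergic class of 145 cells came from the subcluster led by en1b and the glycine transporter gene slc6a5. That subcluster averaged 3171 CPM slc6a5 and 115 CPM gad1b, against 117 CPM gad1b in the en2b-led subcluster. The class thus does not stand for all inhibitory neurons. A cholinergic motoneuron class of 213 cells joined an isl2a-led and an mnx1-led subcluster, with median depths of 1196 and 4746 UMIs per cell. The same rule named the en2b-led subcluster (211 cells) only neuron. It named the low-depth muscle gene-led one (414 neural cells, the largest) fast muscle. The sum over the 73 genes was 1783 ± 192 CPM in the GABAergic or glycinergic class and 748 ± 75.4 CPM in all other neuron-like cells. It was 1046 ± 80.2 CPM in the motoneuron class.

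In GABAergic or glycinergic neuron-like cells, 9 subunits were tested and 5 rose against the other neuron-like cells (12.0% of all 4560 genes tested were called higher), and none fell (12.5% of all genes tested were called lower). The median log2 difference was 1.03 over these 9 genes and -0.01 over all genes tested. Library totals moved the median of all genes by 0.12, and higher calls then made up 61.2% of all called genes in place of 48.9%. The other neuron-like cells were no set of non-inhibitory neurons. slc32a1, the gene required for the class name, averaged 1367 CPM in the en1b-led subcluster. It averaged 440 CPM in the tal1/gata3-led and 323 CPM in the en2b-led subcluster. Cells of the low-depth muscle gene-led subcluster, with 8115 CPM mylpfa, were also among the others. grin1a stood first, with 423 and 261 CPM in the class in flt1 mutant libraries and 459 and 460 CPM in WT libraries, against 60.7 and 61.0 CPM in other neuron-like cells of flt1 mutant libraries and 83.4 and 81.9 CPM in those of WT libraries. No value of the class came near those of the others, and the log2 difference was 2.32 ± 0.16 (edgeR, adjusted p = 8.52e-07).

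glra1 followed with 423 and 438 CPM in the class in flt1 mutant libraries and 435 and 297 CPM in WT libraries, against 184, 141, 142 and 96.3 CPM in other neuron-like cells (log2 difference 1.38 ± 0.14, adjusted p = 1.63e-05). chrna5, an accessory nicotinic alpha subunit, had 49.3, 79.6, 42.3 and 63.7 CPM in the class and 24.6, 16.0, 22.6 and 12.1 CPM in the others (log2 difference 1.51 ± 0.35, adjusted p = 0.00585). The groups did not overlap for either gene. gabrb4 and glrbb differed by 1.31 ± 0.30 and 1.03 ± 0.27, and both calls were lost without WT 2 (adjusted p = 0.064 and 0.091), that of glrbb also without flt1 mutant 1 (adjusted p = 0.0501).

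gria1a differed by 1.03 ± 0.45 in the same direction and did not pass (adjusted p = 0.12), but did so without WT 2 (adjusted p = 0.048) and in cells under 3% mitochondrial UMIs (adjusted p = 0.025). Without the count filter 12 subunits were called, 10 higher and 2 lower in the class (713 to 1447 of all genes were called over the alternatives). One of those added, chrna2a, encodes a nicotinic alpha subunit and falls outside the rule for naming genes. It had 91.6 and 0 CPM in the class in flt1 mutant libraries and 24.2 and 170 CPM in WT libraries from 41 UMIs in 14 cells, so a few cells carried it. Motoneuron-like cells of the 4 libraries held no chrna2a UMI at all.

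Partner genes were counted from lists of the same pathways. Of all genes tested for the GABAergic or glycinergic class, 12.0% were called higher and 12.5% lower. In the GABAergic or glycinergic class, 2 of 5 tested genes of glycine and GABA-A synapses rose (gphnb, log2 0.79, and shisa7b, log2 1.24), as did 4 of 7 tested partners of glutamate receptors, all of them cacng genes for AMPA auxiliary subunits (cacng2a, cacng2b, cacng3b and cacng8b, log2 0.83 to 1.04). The nerve-derived organiser of the muscle endplate, agrn, fell by 1.56 on the log2 scale.

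In cholinergic motoneuron-like cells, 10 subunits were tested and 3 rose against other neuron-like cells (5.79% of all 4974 genes tested were called higher), and none fell (4.99% of all genes tested were called lower). The median log2 difference was 0.51 over these 10 genes and 0.00 over all genes tested. gria2a, an AMPA subunit, had 105 and 74.1 CPM in the class in flt1 mutant libraries and 38.3 and 54.4 CPM in WT libraries, against 31.9, 21.6, 21.6 and 19.1 CPM in other neuron-like cells (log2 difference 1.44 ± 0.31, adjusted p = 0.0079). All 4 values of the class were above all 4 of the others.

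chrnb2, a beta subunit of neuronal nicotinic receptors, had 32.3, 32.9, 51.0 and 27.2 CPM in motoneuron-like cells and 11.2, 10.8, 13.8 and 7.49 CPM in the others. Its log2 difference of 1.71 ± 0.38 (adjusted p = 0.010) rested on 23 UMIs in the class, and the call was lost in DESeq2 (adjusted p = 0.072) and without WT 1 (adjusted p = 0.080). glra1 was 0.73 ± 0.16 higher (adjusted p = 0.00996), a call lost without the library block (adjusted p = 0.086), without the count filter (adjusted p = 0.075) and without WT 2 (adjusted p = 0.055). grin1a had 97.0, 82.3, 38.3 and 175 CPM in motoneuron-like cells, against 135, 105, 143 and 106 CPM in the other neuron-like cells. The spread of the class covered these values (log2 difference -0.28 ± 0.31, adjusted p = 0.64). These other cells include the GABAergic or glycinergic class with its high grin1a. The cells to which that class was compared do not, and they had 60.7, 61.0, 83.4 and 81.9 CPM. The grin1a differences of the 2 classes are thus not measured against the same cells. Among partners, ache (acetylcholinesterase, log2 1.97), agrn (log2 2.48) and lypd6 (log2 1.36) rose, and none of the 8 tested partners of glutamate receptors did. Of all genes tested for this class, 5.79% were called higher.

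**Figure D3:**
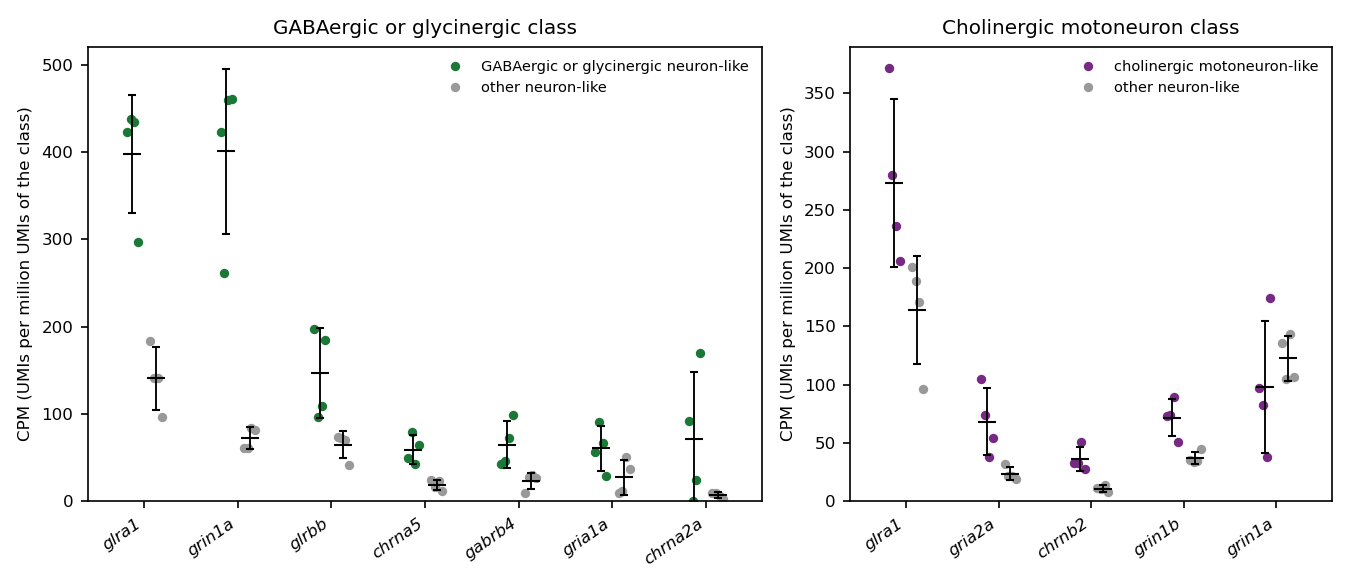
CPM of selected subunits per library (points), with mean and SD over 4 libraries (bars), in the GABAergic or glycinergic class and other neuron-like cells (left panel) and in the cholinergic motoneuron class and other neuron-like cells (right panel). Points of the class lie above those of the other cells for glra1, grin1a, glrbb, chrna5 and gabrb4 on the left and for glra1, gria2a and chrnb2 on the right, and chrna2a spreads between 0 and 170 CPM.

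The remaining neural subclusters are given as levels without a test, and the genes named from here to the retina cells were picked for their values. The hmx2/hmx3a-led subcluster had means of 200 CPM grin1a and 98.8 CPM glrbb. The tal1/gata3-led subcluster had 220 CPM glra1. Glial subclusters held fewer subunits: 68.4 CPM grin2db in the nkx2.2b-led one, 78.3 CPM grik5 in the cyp26b1/glula-led one and 55.2 CPM gria1a in the myelinating glia-like one. These subclusters held 31 to 81 cells each, and a few cells can set such means.

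Cells with retina genes were present although heads had been removed. They numbered 1 and 19 in the flt1 mutant libraries and 85 and 63 in the WT libraries and formed a cone photoreceptor-led cluster and a vsx1/gng13b-led cluster of 67 cells. Over the 3 libraries that held it, the vsx1/gng13b-led cluster had means of 86.9 CPM grin1b and, for rho-type GABA receptor subunits known from retina, 24.3 CPM gabrr3b and 21.0 CPM gabrr3a. These means rested on 18 UMIs of grin1b, 8 of gabrr3b and 6 of gabrr3a, and both rho-type genes were at 0 in its only flt1 mutant library.

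An unnamed cluster of 555 cells, led by phox2a, phox2bb and mki67, held most of the chrna3 UMIs. chrna3, chrna5 and chrnb4 form the receptors of autonomic ganglia, and phox2bb is a transcription factor of autonomic and enteric neurons. These genes were picked for their values. Of the UMIs of chrna3, 51 of 82 lay in this cluster, in 15 cells, and all 15 also held phox2bb. chrna5 had 58.5 and 29.8 CPM in the cluster in flt1 mutant libraries and 15.4 and 12.7 CPM in WT libraries, from 144 UMIs in 31 cells. Of the 130 chrnb4 UMIs, 35 lay in the cluster and 32 in neuron-like cells, with means of 7 and 8.09 CPM. Within the cluster, 30 of the 35 lay in the 104 cells with phox2bb, at 37.5, 38.0, 30.8 and 15.8 CPM. Any of the 3 subunits was found in 38 cells, of which 32 (84.2%) held phox2bb, against 72 of the 517 cells (13.9%) without any of them. The median depth was 11201 UMIs in the 38 cells and 9511 UMIs in the 517 cells.

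Fast muscle-like cells held a short set of subunits. Of 31 tested against neuron-like cells, 5 rose (33.7% of all 9465 genes tested were called higher) and 26 fell (45.8% of all genes tested were called lower), with a median log2 difference of -5.42 over the 31 and -0.45 over all genes. The scaling changed these folds: with library totals in place of TMM the median of all genes moved by -3.16, and 9.35% in place of 42.4% of all called genes were higher.

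The subunits of the muscle nicotinic receptor were the clearest. chrna1, the subunit that binds acetylcholine, had 45.3 and 43.3 CPM in fast muscle-like cells of flt1 mutant libraries and 44.3 and 35.8 CPM in those of WT libraries, against a mean of 2.47 CPM in neuron-like cells. chrne, the adult epsilon subunit, had 43.2 and 46.7 CPM in flt1 mutant libraries and 66.1 and 56.4 CPM in WT libraries, against a mean of 4.03 CPM in neuron-like cells. The groups were far apart for both genes. The log2 differences by TMM were 7.25 ± 0.25 for chrna1, 7.55 ± 0.28 for chrnb1, 7.70 ± 0.36 for chrnd and 6.96 ± 0.27 for chrne, and those by library totals were 4.13, 4.49, 4.71 and 3.83.

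Per 1000 UMIs of the muscle myosin light chain gene mylpfa, chrne gave 1.18 UMIs in fast muscle-like cells, 1.61 in neuron-like cells, 1.5 in smooth muscle-like cells and 1.77 in erythroid-like cells. Fast muscle-like cells had the lowest of these ratios. chrnb1l, a paralogue of chrnb1, stayed at 0.697 and 0.827 CPM in flt1 mutant and 0.399 and 0.689 CPM in WT fast muscle-like cells. Reads of chrnb1 and chrnb1l may be split between the copies by the authors' counting, so both are uncertain to that extent.

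The fifth gene was glra4a, a glycine receptor alpha subunit. It had 57.5 and 69.1 CPM in fast muscle-like cells of flt1 mutant libraries and 19.2 and 22.7 CPM in those of WT libraries, from 1603 UMIs in 310 of 467 cells, against 23.9, 24.3, 16.7 and 13 CPM in neuron-like cells. The CPM values of fast muscle-like cells in WT libraries thus lay among those of neuron-like cells. The log2 difference was 4.09 ± 0.22 by TMM (adjusted p = 4.42e-10) and 0.94 by library totals (adjusted p = 0.0015). In erythroid-like cells 19 of 1631 held a glra4a UMI, at a median depth of 16822 UMIs. The median depth of fast muscle-like cells was 81711 and 79751 UMIs in flt1 mutant and 84232.5 and 78900 UMIs in WT libraries. Per 1000 mylpfa UMIs, glra4a gave 0.875 UMIs in fast muscle-like, 8.04 in neuron-like, 6.44 in smooth muscle-like, 2.48 in radial glia-like and 1.46 in erythroid-like cells, so its ratio to mylpfa was not the same in every class.

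Among the 26 subunits that fell in fast muscle-like cells, glra1 had 0, 0.138, 0.200 and 0.318 CPM, from 8 UMIs in all, and a log2 difference of -6.50 ± 0.37. glrbb fell by 6.54 and grin1a by 4.91 on the log2 scale, and the others by at least 1.89. That smallest value was grik5's, whose call was lost without flt1 mutant 2 (log2 -1.11, adjusted p = 0.094). Of the partner genes, musk, the receptor kinase that organises the endplate, was 7.62 higher by TMM and 4.72 higher by library totals, whereas ache was at 1.98 by TMM and at -1.19 by library totals. agrn fell by 4.15, and 8 of 9 tested genes of glycine and GABA-A synapses and 11 of 12 tested glutamate receptor partners fell under both scalings. Of all genes tested, 45.8% were called lower by TMM. By library totals the median of all genes was -3.62 and 9.35% of called genes were higher. A fall under that scaling was thus common to most genes. homer1b, the exception among the glutamate receptor partners, was at 3.01 by TMM and at -0.16 by library totals.

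**Figure D4:**
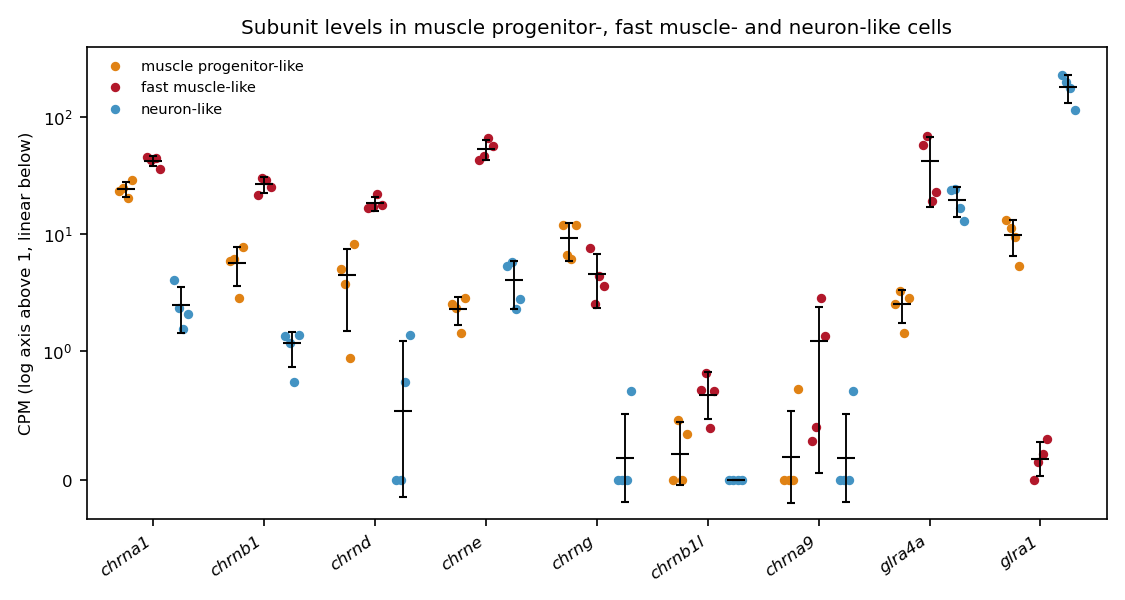
CPM per library (points) with mean and SD over 4 libraries (bars) of the muscle nicotinic subunits, chrna9, glra4a and glra1 in muscle progenitor-like, fast muscle-like and neuron-like cells, on an axis that is logarithmic above 1 and linear below. chrna1, chrnb1, chrnd and chrne peak in fast muscle-like cells, chrng is the only nicotinic subunit shown with a higher mean in progenitor-like cells (9.17 against 4.50 CPM), and glra1 is lowest in fast muscle-like cells.

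Muscle progenitor-like cells were 858 cells with means of 311 CPM myog and 180 CPM pax7a. Their 50 leading genes held 6 of the listed progenitor markers and 5 fibroblast markers, and the first of them were fgl1, en1a and fbln7, which are on neither list. Of 7 subunits tested against fast muscle-like cells, 1 rose (41.3% of all 9471 genes tested were called higher) and 6 fell (34.1% of all genes tested were called lower), with a median log2 difference of -4.76 over the 7 and 0.24 over all genes. Library totals moved the median of all genes by 2.79 here and made 92.0% in place of 54.8% of all called genes higher.

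chrne had 2.48 and 2.33 CPM in progenitor-like cells of flt1 mutant libraries and 1.41 and 2.83 CPM in those of WT libraries, far below the fast muscle-like values given above. Its log2 difference was -7.26 ± 0.20 by TMM and -4.49 by library totals. chrna1 had 23.2, 24.7, 20.3 and 29.0 CPM in progenitor-like cells, which is lower than in fast muscle-like cells in each library but of the same order (log2 -3.57 by TMM, -0.77 by library totals). chrnb1 and chrnd fell by 4.98 and 4.76 by TMM and by 2.18 and 1.97 by library totals, and glra4a by 6.73 and 3.96.

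chrng, the embryonic gamma subunit, was the exception. It had 12 and 6.53 CPM in progenitor-like cells of flt1 mutant libraries and 6.13 and 12 CPM in those of WT libraries, against 7.57 and 2.48 CPM in fast muscle-like cells of flt1 mutant libraries and 4.39 and 3.55 CPM in those of WT libraries. In each library the progenitor-like value was the higher one, although the ranges overlapped. Its log2 difference was -1.68 ± 0.24 by TMM (adjusted p = 0.000119), 1.12 by library totals (adjusted p = 0.0022) and 4.53 when the receptor genes were kept in the clustering (adjusted p = 2.63e-06), so its direction depended on the scaling and on the cell classes.

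The ratio of chrng to chrne UMIs does not depend on the scaling. It was 4.83 and 2.80 in progenitor-like cells of flt1 mutant libraries and 4.33 and 4.25 in those of WT libraries, against 0.175 and 0.0531 in fast muscle-like cells of flt1 mutant libraries and 0.0665 and 0.0630 in those of WT libraries. The progenitor-like ratios rested on 6, 5, 3 and 8 chrne UMIs. At a mean of 2.26 CPM, chrne was lower there than in neuron-like cells (4.03 CPM), so background RNA may make up part of these counts. The mean log2 ratios differed by 5.65 (exact permutation test within libraries, two-sided, p = 0.125, the smallest value that 4 libraries allow; the ratio was chosen after its values were seen).

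chrng lay in few cells of both muscle classes. A UMI of it was held by 49 of 858 progenitor-like cells. Of the 467 fast muscle-like cells, 53 held one (15 and 5 in flt1 mutant libraries, 9 and 24 in WT libraries). Their median depth was 21055 UMIs, against 89247 UMIs in the 414 without. The fast muscle-like cells with chrng had a mean of 888 CPM of myog and 78.8 CPM of mymk, which encode a regulator of muscle differentiation and a factor of myoblast fusion, against 16.9 and 1.01 CPM in the cells without. They had 121 CPM of chrna1 and 11.7 CPM of glra4a, against 39.0 and 43.1 CPM. These cells were set apart by chrng itself, so the values are a description without a test.

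glra1 was the subunit that rose in progenitor-like cells, with 13.2 and 11.2 CPM in flt1 mutant libraries and 9.43 and 5.30 CPM in WT libraries, all above the fast muscle-like values (log2 2.69 ± 0.59 by TMM, adjusted p = 0.0020; 5.42 by library totals). This level was not particular to progenitor-like cells. glra1 averaged 9.79 CPM in them, 9.49 CPM in radial glia-like and 7.20 CPM in smooth muscle-like cells. Of the endplate partners, agrn was at 3.16 by TMM and 5.96 by library totals. ache and rapsn, whose product clusters nicotinic receptors, were at -4.46 and -3.60 by TMM and at -1.66 and -0.82 by library totals, the last with an adjusted p of 0.13. musk was at -2.36 by TMM and 0.43 by library totals.

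Outside neural and muscle cells, levels were low and rested on few UMIs. grin3bb, an NMDA subunit of the GluN3 type, had 15.2 and 34.5 CPM in chondrocyte- or sclerotome-like cells of flt1 mutant libraries and 16.0 and 9.67 CPM in those of WT libraries, from 38 UMIs in 31 cells. chrng averaged 7.53 CPM in endothelial-like cells from 10 UMIs in 7 cells, and gria2b averaged 15 CPM in melanophore-like cells from 18 UMIs, of which 14 lay in WT 2. The genes of this paragraph other than chrng are outside the naming rule and were picked for their values.

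Between the genotypes, 1 subunit differed in 1 class. In fast muscle-like cells 7 subunits were tested and glra4a rose in flt1 mutant libraries (1.07% of all 6926 genes tested were called in either direction). Its values of 57.5 and 69.1 CPM in flt1 mutant libraries and 19.2 and 22.7 CPM in WT libraries did not overlap, and the log2 difference was 1.54 ± 0.16 (edgeR's quasi-likelihood test, adjusted p = 0.0090, n = 2 libraries each). It was called under all 15 alternatives, with log2 differences of 1.38 to 1.76 and adjusted p of 1.5e-13 to 0.033. The mean level of mylpfa in these cells was 42703 CPM in flt1 mutant and 44905 CPM in WT libraries, that of the epidermal krt4 124 and 173 CPM, that of the haemoglobin gene hbae1.1 15.8 and 35.2 CPM and that of the neuronal elavl3 0.651 and 1.59 CPM. The part of these other transcripts in the difference was not tested.

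The nicotinic subunits of the same cells gave no call. chrne was at -0.47 ± 0.12 (adjusted p = 0.14), with both flt1 mutant values below both WT values. chrna1, chrnb1, chrnd and chrng had log2 differences of 0.12 ± 0.14, -0.10 ± 0.17, -0.26 ± 0.15 and 0.41 ± 0.48, and the values of the genotypes overlapped for chrna1, chrnb1 and chrng. chrna9, known from sensory hair cells and outside the naming rule, had 0.299 and 0.414 CPM in flt1 mutant and 2.80 and 1.32 CPM in WT libraries from 45 UMIs (log2 -2.36 ± 0.59, adjusted p = 0.13), and was called without the count filter (adjusted p = 0.0073).

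glra4a was also compared in other classes. In neuron-like cells it had 23.9 and 24.3 CPM in flt1 mutant and 16.7 and 13 CPM in WT libraries, a log2 difference of 0.65 ± 0.32 that did not pass (adjusted p = 0.52). Smooth muscle-like cells had 10.2 and 6.60 CPM in flt1 mutant and 2.52 and 1.05 CPM in WT libraries from 43 UMIs (log2 2.12 ± 0.54, adjusted p = 0.15). Both flt1 mutant values were above both WT values in 5 of 9 classes with at least 10 UMIs of the gene. Besides fast muscle-, neuron- and smooth muscle-like cells, these were superficial epidermis-like (23 UMIs) and erythroid-like cells (19 UMIs). All classes came from the same 4 libraries, and fast muscle-like cells held 81.3% of the glra4a UMIs, so the classes are no independent repeats. The same share was not counted for other genes. Over the whole trunk it had 14.9 and 15.7 CPM in flt1 mutant and 4.08 and 8.57 CPM in WT libraries, and the log2 difference of 1.26 ± 0.41 did not pass (adjusted p = 0.25), but did with library totals (adjusted p = 0.031), without WT 1 (0.76, adjusted p = 0.048) and without WT 2 (2.09, adjusted p = 0.0086).

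**Figure D5:**
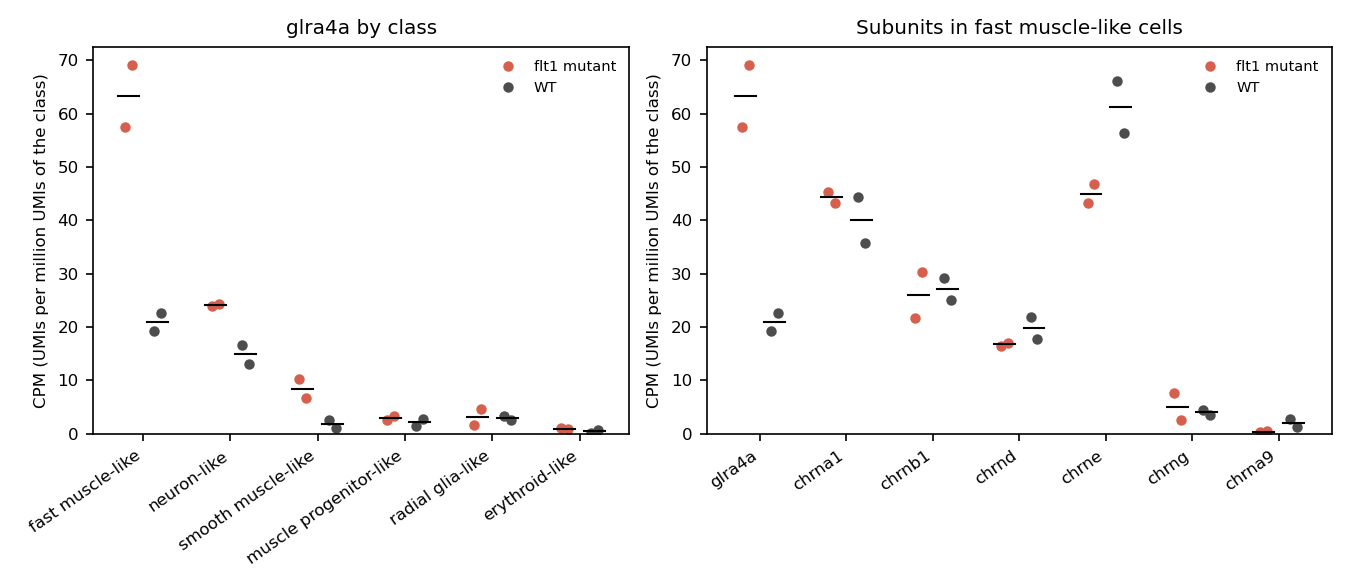
CPM per library (points) and mean of the 2 libraries of a genotype (lines) for glra4a in 6 cell classes (left panel) and for glra4a and the nicotinic subunits in fast muscle-like cells (right panel). The flt1 mutant points of glra4a lie above the WT points in fast muscle-like, neuron-like, smooth muscle-like and erythroid-like cells, and those of chrne lie below.

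In neuron-like cells 25 subunits were tested and none was called (0% of all 7981 genes tested were called), with 2 at an unadjusted p under 0.05 (10.7% of all genes tested were) and none in DESeq2. One was gria1a, whose log2 difference was -0.95 ± 0.30 (adjusted p = 0.37) and which was called without WT 2 (adjusted p = 0.04997). The makeup of the class also differed. The en2b-led subcluster made up 9.68% and 10.4% of neuron-like cells in flt1 mutant and 25.2% and 16.6% in WT libraries, and the pax10-led one 0% and 1.93% in flt1 mutant and 7.96% and 5.82% in WT libraries. In the other neuron-like cells gria1a had 20.2 and 29.1 CPM in flt1 mutant and 29.7 and 20.4 CPM in WT libraries, and without these and the low-depth muscle gene-led subcluster the log2 difference was 0.43 (adjusted p = 0.87). The other was glra1 (log2 0.51 ± 0.19, adjusted p = 0.43), which is outside the naming rule here and was called without WT 1 (log2 0.75, adjusted p = 0.036).

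In radial glia-like cells 6 subunits were tested and none was called (0% of all 9168 genes tested were called), with 3 at an unadjusted p under 0.05 (10.0% of all genes tested were) and none in DESeq2. Those 3, named after their values were seen, were chrna5, glra1 and grin2db, at log2 3.15 ± 0.84, 1.32 ± 0.39 and 1.26 ± 0.44. gria1a had 10.1 and 6.94 CPM in flt1 mutant and 17.5 and 10.9 CPM in WT libraries (log2 -0.76 ± 0.42, adjusted p = 0.54). Over the whole trunk 44 subunits were tested and none was called (0.466% of all 18036 genes tested were called, of which 60.7% were higher by TMM and 45.1% by library totals), with 8 at an unadjusted p under 0.05 (15.7% of all genes tested were) and none in DESeq2. Among these 8, gria1a was at -1.12 ± 0.33 and grin1a at -0.67 ± 0.16 (adjusted p = 0.22 and 0.16). A lower level per cell and a smaller share of cells of a class cannot be told apart in such sums. Neuron-like cells made up 217 of 4312 and 259 of 5569 cells of the flt1 mutant libraries. In the WT libraries they made up 314 of 3042 and 481 of 6688 cells. Of the receptor partner genes, none was called between genotypes in any of these 4 comparisons.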

How the data were processed

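Trunk cells were captured with the 10x Genomics Chromium 3′ system. Per the file headers, the authors made the matrices with Cell Ranger 6.1.1, on genome build GRCz11 per the labels, and the deposited values are UMI counts per gene and barcode without normalization. Labels and methods differ on the chemistry version.

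Cells with over 200 and under 4000 genes and under 5% mitochondrial UMIs were kept, after the study's methods. Seurat 5.3.0 clustered them after log-normalisation, where the study used SCTransform (2000 variable genes, none of them a receptor gene; reciprocal principal component integration with 30 dimensions; 50 components; resolution 0.3, neural cells again at 0.7). Classes were named "-like" when at least 3 listed markers were detected and led the cluster. Doublets were kept, and Scrublet (scanpy 1.11.5) served as an alternative that removed the 6% of highest score. Counts were summed per library and class and tested with edgeR 4.0.16 (quasi-likelihood, TMM, filterByExpr, two-sided, Benjamini-Hochberg over all genes, threshold 0.05), with library as a block between classes and no block between genotypes. DESeq2 1.42.0 was an alternative. SEs were derived from the F statistic. The steps were tested on simulated counts.

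The receptor genes, partner lists and tests were chosen with earlier results of these data known. In each comparison the text names up to 8 called genes per direction, the gene of each family with most UMIs and the muscle nicotinic subunits, and says where a gene falls outside this rule. Some subunit genes are counted but their values are not reported here. Replicate numbers are shared between genotypes, but the labels state no link, and same-numbered libraries did not deviate together (r = -0.132, -0.117 and -0.128 in whole trunk, neuron-like and fast muscle-like cells). Sequences and coordinates were not used here.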

Additional observations from a re-analysis of the deposited data

Results flagged for a closer look

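In 2 of 54 sets of 4 libraries, 1 library stood apart from the other 3 by Dixon's criterion, which chance alone meets in about 1 of 20 sets. grin1a in fast muscle-like cells was at 0.742 CPM in WT 2 and between 0.199 and 0.276 CPM in the others. glra1 in GABAergic or glycinergic neuron-like cells was at 297 CPM in WT 2 and between 423 and 438 CPM in the others.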

How the results depend on the processing

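Of the counts of called subunits, 115 of 129 values under alternatives stayed within 1.5 times the value reported. Without the count filter, 37 of 70 subunits were called between neuron-like and radial glia-like cells, 49 of 69 between fast muscle-like and neuron-like cells, 11 of 52 between progenitor-like and fast muscle-like cells, 12 of 67 in the GABAergic or glycinergic class, 7 of 67 in the motoneuron class and 2 between genotypes in fast muscle-like cells. Without the muscle gene-, en2b- and pax10-led subclusters, an alternative added after seeing the data, 10 of 12 tested subunits were called between neuron-like and radial glia-like cells, where fewer subunits could be tested. Under 3% mitochondrial UMIs 1 subunit was called in the motoneuron class, and with library totals 1 between genotypes in the whole trunk. Leaving out 1 library at a time gave 17 to 20 called subunits for neuron-like against radial glia-like, 30 to 34 for fast muscle-like against neuron-like, 7 to 8 for progenitor-like against fast muscle-like, 4 to 6 and 3 to 4 for the 2 neuron classes, and between genotypes 0 to 1 in neuron-like, 0 in radial glia-like, 1 in fast muscle-like cells and 0 to 2 in the whole trunk. Directions turned for grik5 between neuron-like and radial glia-like cells (log2 -0.39 to 0.59 without 1 library, below 0 without WT 1 or flt1 mutant 2, and -0.015 with receptor genes in the clustering), chrng between muscle classes (1.12 and 4.53, above), grin1a in motoneuron-like cells (-0.93 to 0.068, above 0 without WT 1), gria1a between genotypes without the 3 subclusters (0.43), chrnb1 between genotypes in fast muscle-like cells (-0.29 to 0.093, above 0 without flt1 mutant 1, and 0.026 under 3% mitochondrial UMIs), and chrng there (-0.72 to 0.99, below 0 without flt1 mutant 1), and the cause was not tested. With the replicate number as a block, 0, 0, 1 and 0 subunits and 6, 0, 22 and 41 genes were called between genotypes in neuron-like, radial glia-like, fast muscle-like cells and the whole trunk, and with crossed numbers 2 subunits in fast muscle-like cells. Leaving out cells with krt4 or cyt1 left too few cells for a value. The number of all genes called between genotypes ranged over 0 to 352 in neuron-like, 0 to 222 in radial glia-like and 22 to 542 in fast muscle-like cells and 3 to 626 in the whole trunk. Between classes that number was 4480 to 7657 for neuron-like against radial glia-like cells. It was 6124 to 9538 for fast muscle-like against neuron-like and 5981 to 9062 for progenitor-like against fast muscle-like cells. For the GABAergic or glycinergic class it was 713 to 1447, and for the motoneuron class 359 to 1115. The share of all genes called under each single alternative is not given here. The 11 subunits with under 10 UMIs in all could not be compared at this depth.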
